A study of Mus musculus with 2 samples.

Results

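CTCF is a zinc finger protein that binds DNA through a long, direction-bearing motif and, with the cohesin ring, holds the ends of chromatin loops. Loops form most often between sites whose motifs point towards each other, and CTCF sites also act as insulators between genes and enhancers. Most sites are occupied in many tissues, and they usually lie close to other sites, in gene-rich DNA. The regions described here are the exceptions to that crowding, the isolated CTCF peaks of newborn mouse stomach. An isolated peak was defined by position alone, as an autosomal peak of the optimal list with no other optimal summit within 150 kb on either side. The rule found 717 isolated peaks among 72514 autosomal optimal peaks, or 0.989% (exact Clopper-Pearson 95% interval 0.918 to 1.06), and the list held 74293 peaks in all.

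The data are ChIP-seq with a CTCF antibody on stomach tissue of B6NCrl mice at postnatal day 0, in 1 group of 2 replicates. In ChIP-seq, DNA bound to a protein is pulled down with an antibody and sequenced. The labels give both replicates the same donor and the same tissue sample and record no sex, so the spread between the replicates may be technical. Whole stomach holds epithelium, muscle, nerve, blood vessel and blood cells, and the peaks of these cell types cannot be told apart here. The optimal list comes from both replicates after IDR, which selects peaks by how similarly replicates rank them, while the relaxed lists of single replicates hold 300000 peaks each. Peak signal is a value the authors' peak caller assigned. The optimal list and the relaxed list of both replicates together give a peak the same signal up to rounding, while the single replicates' lists are not scaled to each other.

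The 10 windows below show what an isolated peak looks like in sequence, with 50 bp on either side of the summit on the plus strand of GRCm38 (mm10). Capitals mark the best match to a CTCF matrix of 19 positions, read on either strand, whose consensus was TGGCCACCAGGGGGCACTA. The first 5 windows are the strongest isolated peaks, the next 3 are those farthest from any other summit, and the last 2 are the weakest, each named by the nearest coding gene. That gene marks a place only and is not a target of the peak.
Samd12, chr15:54070136-54070236: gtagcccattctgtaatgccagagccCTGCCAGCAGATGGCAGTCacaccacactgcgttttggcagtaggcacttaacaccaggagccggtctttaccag
Lmo3, chr6:138477751-138477851: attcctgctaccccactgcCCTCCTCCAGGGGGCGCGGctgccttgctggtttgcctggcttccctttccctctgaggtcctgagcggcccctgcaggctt
St3gal1, chr15:67434446-67434546: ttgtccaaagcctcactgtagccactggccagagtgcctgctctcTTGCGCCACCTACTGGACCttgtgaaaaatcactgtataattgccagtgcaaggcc
Tcerg1l, chr7:138084216-138084316: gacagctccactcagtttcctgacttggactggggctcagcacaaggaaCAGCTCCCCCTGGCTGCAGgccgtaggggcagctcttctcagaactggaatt
Brms1l, chr12:56058624-56058724: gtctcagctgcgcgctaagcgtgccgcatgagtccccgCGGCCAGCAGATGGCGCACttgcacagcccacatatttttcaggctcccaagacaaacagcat
Vmn1r66, chr7:10354849-10354949: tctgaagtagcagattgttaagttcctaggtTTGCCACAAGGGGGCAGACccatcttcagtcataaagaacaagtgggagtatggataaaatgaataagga
Fstl5, chr3:77216177-77216277: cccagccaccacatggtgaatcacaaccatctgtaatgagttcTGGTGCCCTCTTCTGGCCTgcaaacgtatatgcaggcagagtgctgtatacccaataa
Lrfn5, chr12:62893359-62893459: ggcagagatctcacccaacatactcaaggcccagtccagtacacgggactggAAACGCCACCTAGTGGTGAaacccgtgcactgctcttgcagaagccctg
Fam19a4, chr6:96677850-96677950: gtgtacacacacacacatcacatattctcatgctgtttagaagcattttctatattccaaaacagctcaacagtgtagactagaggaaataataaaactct
Cntnap2, chr6:46625489-46625589: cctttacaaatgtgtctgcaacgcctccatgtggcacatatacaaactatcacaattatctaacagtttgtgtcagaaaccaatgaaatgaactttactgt
The first 8 windows held a match at or above the threshold of 11.76, and the 2 weakest peaks did not, with best scores of -2.68 near Fam19a4 and 10.3 in Cntnap2. The matches of St3gal1, Tcerg1l, Fstl5 and Lrfn5 lie on the minus strand, so their letters run in the opposite direction to the consensus.

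The strongest isolated peak lay in intergenic DNA 167656 bp from the nearest coding start, that of Samd12, with an optimal signal of 515.5 (278.2 in replicate 1 and 241.3 in replicate 2). The next optimal summits were 284.6 kb before it and 208 kb after it, and no coding gene started within 150 kb. Lmo3, which encodes a LIM-only cofactor of transcription, held the next in an intron, with a signal of 505.5 (275.8 in replicate 1 and 231.1 in replicate 2). St3gal1, which encodes a sialyltransferase, was the nearest coding gene to the one after it, with a signal of 493.4 at a distance of 257666 bp. These peaks had strong signal in both replicates and no coding start within 50 kb.

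Among the 10 strongest, 8 were intergenic and 2 intronic, and signals ran down to 400.5. Cpne8, which encodes a copine, a calcium-dependent membrane-binding protein, was the only one of the 10 with its coding start within 1 kb of the peak, at 726 bp, with a signal of 428.5 (256.6 in replicate 1 and 172.3 in replicate 2). The peak 58664 bp from Tlr4, the lipopolysaccharide receptor, was the only one of the 10 without a motif match, at a signal of 407.9 and a best score of 8.43. Olfm4, which encodes a secreted glycoprotein of the gut, was the nearest coding gene to a peak with a signal of 402.1, at a distance of 845450 bp. That peak had no other optimal summit for 576.4 kb before it and 3099 kb after it.

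The 10 most isolated peaks were chosen by distance alone. Their signals were lower than those of the 10 strongest, which is built in because those were chosen by signal. The extreme case lay 76893 bp from Vmn1r66, a vomeronasal pheromone receptor gene on chromosome 7, with 3055 kb of DNA before it and 2131 kb after it free of optimal summits. Its signal was 23.7, with 8.66 in replicate 1 and 13.8 in replicate 2, and its motif score was 21.5. The peak 622677 bp from Fstl5, a follistatin-like gene, had an optimal signal of 17.6, 13.4 in replicate 1 and no summit within 100 bp in replicate 2. The signals of these 10 peaks ran from 17.6 to 109.4, the highest being the peak 1154999 bp from the cadherin gene Cdh7, and all 10 held a motif match. The nearest coding genes of the other 7 were Lrfn5, 4931408C20Rik, Map3k7, Nxph1, Pcdh7, G6pd2 and Adcyap1.

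At the weak end, the 5 isolated peaks of lowest signal ran from 14.0 near Fam19a4 to 15.9 near Jag1, which encodes a Notch ligand. The others lay in an intron of Cntnap2 and near Cntnap5a, both neurexin family genes, and near Grik2, a glutamate receptor gene. None of the 5 held a motif match. The Fam19a4 peak had no summit in the replicate 1 relaxed list, and the Grik2 peak had none in that of replicate 2. Around the threshold of the rule, the members just inside had a nearest summit at 150.6, 150.9 and 150.9 kb (signals 116.6, 25.2 and 47.4), and the peaks just outside had one at 149.6 kb in all 3 cases (signals 37.0, 188.5 and 120.7).

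Isolation varied widely among the members. The nearest optimal summit lay at a median of 220.4 kb from an isolated peak (upper quartile 307.2 kb, highest 2131 kb), and at a median of 5.32 kb from the other 71797 autosomal peaks, a contrast that the rule itself sets. The stretch free of other optimal summits around an isolated peak was 692.8 kb long at the median and 5186 kb at most. Of the 717 isolated peaks, 435 (60.7%) had another isolated peak as the next summit on at least 1 side. That next summit borders the same wide space, so it already meets the rule on that side. The share is therefore partly built in, and what a random order would give was not tested. An assembly gap of 10 kb or more, or a chromosome end, lay within 150 kb of 14 isolated peaks (1.95%).

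The longest run held 7 isolated peaks in a row on chromosome 2, over 4.24 Mb between summits at 85561373 and 89799797. Of 205 coding gene starts in that stretch, 200 were olfactory receptor genes, which encode the odorant receptors of the nose. In order along the chromosome, the signals were 400.2 near Olfr996, 325.1 near Olfr1009, 250.7 near Olfr1066, 39.7 at Olfr1150-ps1, 257.9 near Olfr1177-ps, 81.8 near Olfr1243 and 39.7 near Olfr1254. In the same order, the 4 strongest had 222.4, 174.2, 145.4 and 127.4 in replicate 1 and 177.8, 149.9, 105.2 and 129.9 in replicate 2. The 2 weakest were the pair without a motif match, and 5 of the 7 held one. The run therefore joins some strong and some weak sites across a single receptor cluster.

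The DNA around isolated peaks was not empty of weaker signal. In the relaxed list of both replicates together, a median of 5 further peaks (quartiles 3 and 8) lay within 150 kb of an isolated summit and over 300 bp from it, and 27 isolated peaks (3.77%) had none. The strongest of these weaker peaks had a median signal of 11.35 and at most 45.5, and at 16 isolated peaks it was stronger than the member. Relaxed peaks stood at 20.9 per Mb in these surroundings, against 92.3 per Mb for relaxed peaks off the optimal list over all autosomes. The surroundings cover 205.4 Mb, or 8.57% of the autosomes outside gaps.

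Isolated peaks were on the weaker side of the list. Signal was 55.2 at the median of the isolated peaks, with quartiles of 32.5 and 138.3, and 76.5 at the median of the other peaks, with quartiles of 34.8 and 233.2. The median isolated peak stood at percentile 40.8 of the list. The difference was largest at the top, where 2 of the 690 peaks with signal of 500 or more were isolated, and 13 isolated peaks (1.81%) reached the strongest 10% of the list. At the other end, none of the 452 peaks with signal under 10 was isolated, and the lowest signals were 14.0 among isolated peaks and 4.99 among the others. Isolated peaks were 0.989% of the whole list, so few would be among 690 or 452 peaks. The counts at signals of 500 or more and under 10 therefore say little alone. The 10th percentiles lay close together, at 22.8 for isolated peaks and 23.0 for the others. Signals of the 2 groups overlapped over most of their range, and no test was made because the same list chose the members.

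**Figure D1:**
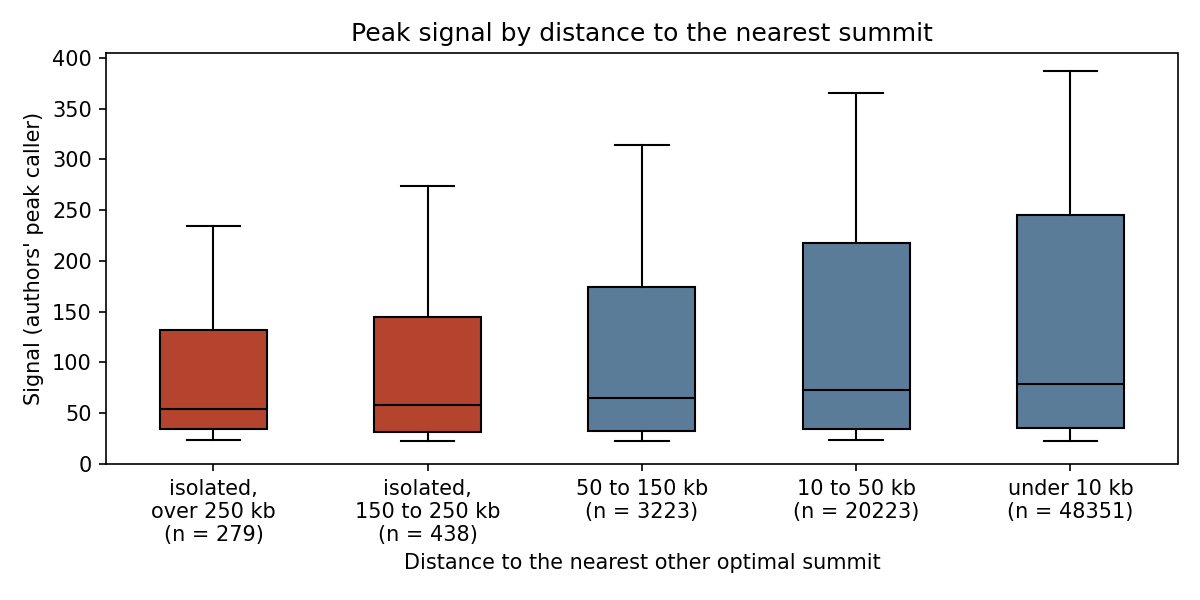
Signal in the optimal list (vertical axis, the authors' peak caller values) by distance to the nearest other optimal summit, with isolated peaks in red and other autosomal peaks in blue; boxes give the median and quartiles, whiskers the 10th and 90th percentiles. The median is 54.6 for isolated peaks over 250 kb from any summit and 79.2 for peaks under 10 kb from one, and all boxes overlap.

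Distance from other peaks and signal were related only in broad steps. The medians were 54.6 for the 279 isolated peaks over 250 kb from any other summit and 58.25 for the 438 between 150 and 250 kb, against 65.5 for 3223 peaks at 50 to 150 kb, 73.2 for 20223 peaks at 10 to 50 kb and 79.2 for 48351 peaks under 10 kb. Within the 717 members, signal and nearest distance had a Spearman rho of -0.08, given as a description. Isolated peaks also had a lower median than the 9188 other peaks over 100 kb from a coding start, whose median was 64.6. On single chromosomes the isolated median was lower than that of the other peaks on 15 of 19 autosomes.

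Nearly all isolated peaks were found in both replicates when the relaxed lists were read. A summit within 100 bp was present in both relaxed lists for 708 of 717 isolated peaks (98.7%), and for 97.1% of the other peaks. The stricter reading took the strongest 72514 autosomal peaks of each replicate, as many as the optimal list holds. By that reading 587 isolated peaks (81.9%, 95% interval 78.85 to 84.62) were in both replicates, against 83.1% of the other peaks. A further 50 were only in the list of replicate 1, 58 only in that of replicate 2 and 22 in neither. The conservative list held 630 isolated peaks (87.9%) and 88.5% of the others. The interval of the isolated share spans the share of the other peaks in both the strongest lists and the conservative list. It covers counting error only, and the optimal list was itself made from these replicates.

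Presence in both strongest lists was then set against signal. The list was divided by signal into 5 bins of equal size, numbered from 1 for the weakest. In bin 1, 24.1% of 158 isolated peaks were in both strongest lists, against 24.0% of the other peaks. In bin 2 the shares were 94.8% of 192 isolated peaks and 92.1% of the others. All 161, 151 and 55 isolated peaks of bins 3, 4 and 5 were in both. The unshared members were therefore weak ones, as among the other peaks. A place in a strongest list is itself a cut on signal in the same replicates, so this pattern is largely built in.

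**Figure D2:**
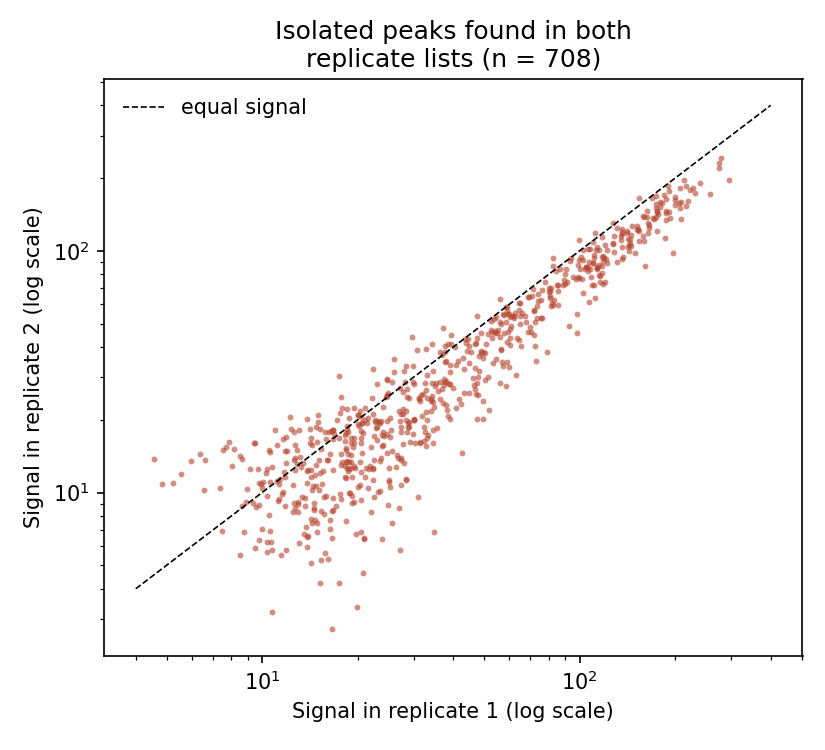
Signal of the 708 isolated peaks found in both relaxed lists, with replicate 1 on the horizontal and replicate 2 on the vertical axis, both on log scales; each point is a peak and the dashed line marks equal signal. Most points lie below the line, with a median log2 ratio of replicate 1 over replicate 2 of 0.33, and the scatter is widest among weak peaks.

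The 708 isolated peaks with a summit in both relaxed lists had a median signal of 31.9 in replicate 1 and 24.5 in replicate 2, and the other peaks had 45.8 and 33.2. The median log2 ratio of replicate 1 over replicate 2 was 0.33 (quartiles 0.10 and 0.61) for isolated peaks and 0.42 (0.21 and 0.70) for the others. Since the lists are not scaled to each other, the offset cannot be read as a difference in binding. Ranks followed each other, with a Spearman rho of 0.92 over 708 isolated peaks and 0.95 over 69705 others. These points share 2 libraries and are not independent.

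A peak can be isolated in a replicate's list only if it is listed there. With the same rule applied to each replicate's strongest list, 577 of the 717 peaks (80.5%) were isolated in replicate 1 and 540 (75.3%) in replicate 2. In replicate 1, 60 peaks had a neighbour and 80 were not listed, and in replicate 2, 105 had a neighbour and 72 were not listed. The rule held in both replicates for 465 peaks (64.9%). Their median signal was 73.5, against 29.6 for the 252 peaks where it did not.

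Most isolated peaks held the CTCF motif. On chromosomes 2 to 19, which were not used to build the matrix, 496 of 653 isolated peaks (76.0%, 95% interval 72.5 to 79.2) had a match at the summit. The shares were 72.0% of 8424 other peaks over 100 kb from a coding start and 69.3% of all 67035 other peaks. The same threshold was met by 1.01% of windows on a regular grid. Windows 1 kb before and after the summit matched at 2 and 1 isolated peaks (0.306% and 0.153%), against 1.83% and 1.84% for the other peaks. The rule keeps other optimal summits out of these windows at isolated peaks only, so that difference is partly set by it. At the summit, the isolated share was higher than that of the other peaks on 15 of 18 chromosomes.

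The motif shares of isolated and other peaks lay farthest apart among the weakest peaks. In signal bin 1, the weakest, 66.0% of 141 isolated peaks held a match (95% interval 57.5 to 73.7), against 51.1% of the other peaks over 100 kb from a coding start and 44.6% of all other peaks. In bin 2 the shares were 71.01% of 169 isolated peaks, 65.0% and 58.7%. In bin 3 they were 74.5%, 74.6% and 68.3%, and in bin 4 they were 87.9%, 84.3% and 81.4%. In bin 5 the order turned, with 90.7% of 54 isolated peaks, 92.9% and 93.2%, all within the interval of the isolated share (79.7 to 96.9). The isolated share was above that of all other peaks in bins 1 to 4, and above that of the peaks over 100 kb from a coding start in bins 1, 2 and 4. Both of the other shares lay below its interval in bin 1, and only that of all other peaks did in bin 2 (63.5 to 77.7). In bins 3 (66.7 to 81.3) and 4 (81.3 to 92.8) the interval of the isolated share spanned both.

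**Figure D3:**
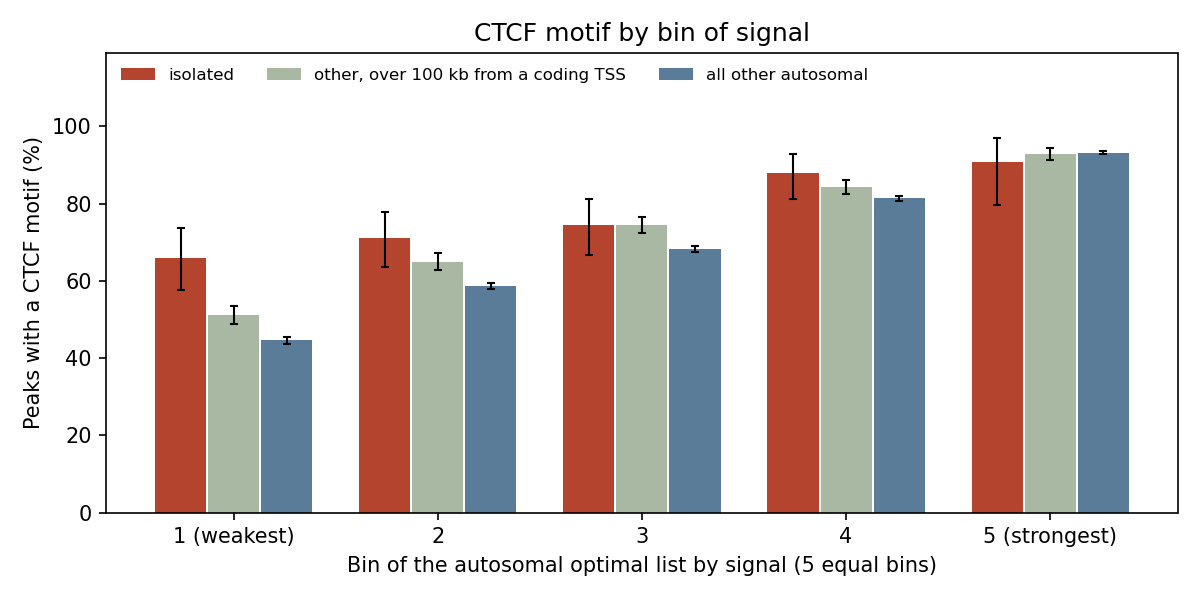
Share of peaks with a CTCF motif within 50 bp of the summit (vertical axis, percent) in 5 equal bins of signal of the autosomal optimal list, on chromosomes 2 to 19; bars give isolated peaks (red), other peaks over 100 kb from a coding transcription start site (TSS, green) and all other peaks (blue), and error bars are exact 95% intervals. The bars differ most in the weakest bin, at 66.0%, 51.1% and 44.6%.

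Peaks near gene starts held the motif less often in both groups. Within 1 kb of a coding start the motif was found at 7 of 16 isolated peaks (43.8%) and 40.6% of 10541 others. Elsewhere it was found at 76.8% of 637 isolated peaks (95% interval 73.3 to 80.0) and 74.6% of 56494 others, a share within that interval. Under a stricter score, met by 0.1% of grid windows, the order was the other way, with 19.9% of isolated peaks (95% interval 16.9 to 23.2) and 21.45% of the others, a value inside that interval. When the rule was applied only to peaks above the median signal of the list, 82.9% of the isolated peaks and 84.0% of the others had a match. That rule selects another set of isolated peaks than the whole list does.

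The most common base was the same at 16 of 19 positions in the 496 isolated sites and the 46435 sites of other peaks. Those consensus letters were TGGCCACTAGAGGGCACTA in isolated sites and TGGCCAGAAGAGGGCACCA in the others. On average the most common base took 64.27% of isolated sites and 65.85% of the others. Both sets were picked and aligned by the same matrix at the same threshold, so their likeness is largely built in. Of the isolated sites, 270 of 496 (54.4%) lay on the plus strand, with an interval of 49.9 to 58.9.

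Motif direction was read for neighbouring peaks that both held a match. Of 592 such pairs with at least 1 isolated peak, 25.2% pointed towards each other, 15.9% away from each other and 59.0% the same way. The same shares were 32.6%, 17.0% and 50.4% in 688 pairs over 150 kb apart with no isolated peak. They were 22.2%, 24.4% and 53.3% in 32990 pairs with no isolated peak at any distance. Pairs that pointed away were thus fewer at long range whether or not a peak was isolated. Pairs that pointed the same way were most common in every class of pairs, which is largely built in. Same-way pairs join plus with plus and minus with minus, while each other direction holds a single arrangement. The shares were not tested against random directions.

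DNA around isolated peaks was also poor in motif matches that carried no optimal peak. Outside 50 bp of optimal summits, matches stood at 56.6 per Mb within 150 kb of an isolated summit and 103.1 per Mb over the autosomes. Matches at the stricter score, peaks included, stood at 1.485 per Mb and 8.24 per Mb. The rule keeps all other optimal peaks out of these surroundings, so the second pair of values is partly set by it.

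The gene context of isolated peaks was gene-poor. Of 717 isolated peaks, 518 (72.2%, 95% interval 68.8 to 75.5) were intergenic, against 56.1% of the other peaks over 100 kb from a coding start, 38.3% of all other peaks and 51.5% of autosomal bases. The intergenic share was higher than that of the other peaks on 19 of 19 autosomes. Introns held 168 isolated peaks (23.4%) and 48.4% of the others. A further 18 isolated peaks lay in noncoding exons, 7 in untranslated regions and 6 in coding exons. The strongest of each were at signals of 337.9 near Mei4, 176.2 in Lrrc7 and 292.1 in Fam84a.

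**Figure D4:**
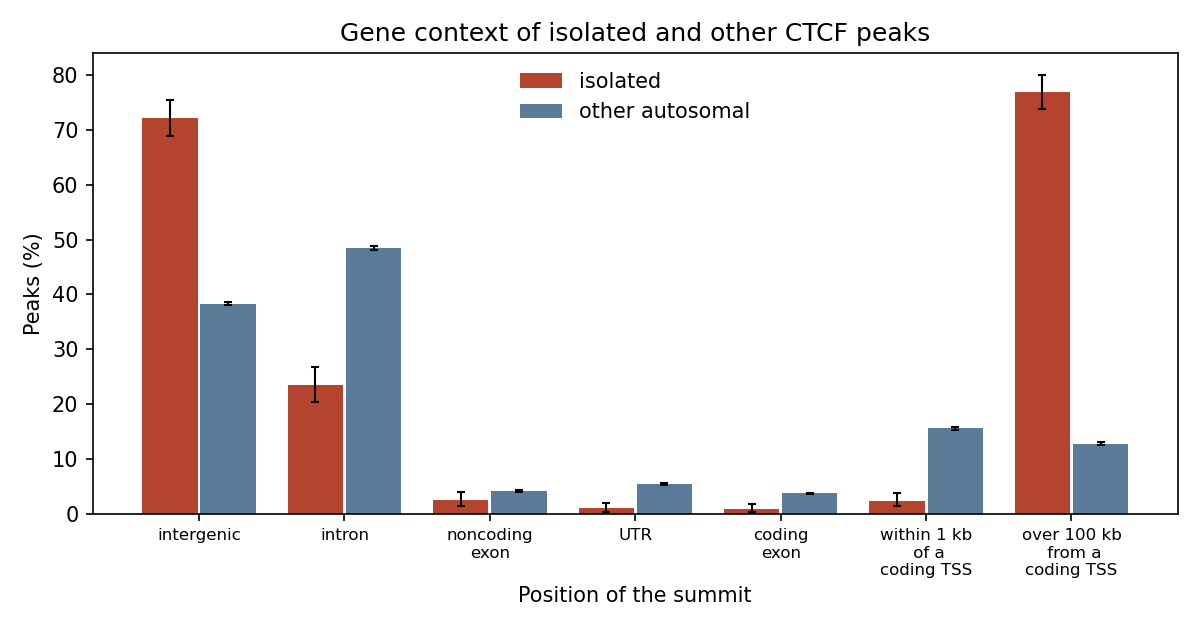
Share of peaks (vertical axis, percent) by position of the summit in the GENCODE M21 annotation, with isolated peaks (red) beside the other autosomal peaks (blue) and exact 95% intervals; the last 2 classes count distance to a coding TSS and overlap the first 5. Isolated peaks are 72.2% intergenic, against 38.3% of the others, and 77.0% lie over 100 kb from a coding start, against 12.8%.

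The median distance to a coding start was 328.6 kb for isolated peaks (quartiles 120.6 and 598.9) and 15.5 kb for the others. Over 100 kb from a coding start lay 552 isolated peaks (77.0%) and 12.8% of the others. No coding gene started within 150 kb of 538 isolated peaks (75.03%), against 11.0% of the others. The surroundings held 2.64 coding genes per Mb, and the autosomes 8.65. Peak density and gene density go together along chromosomes, so distance from peaks and distance from genes cannot be told apart here.

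A small group of 17 isolated peaks (2.37%) lay within 1 kb of a coding start, against 15.6% of the other peaks. After their values were seen, 3 were singled out. Fat3 is a giant cadherin gene, and its peak had a signal of 143.7 (98.3 in replicate 1 and 45.8 in replicate 2) with no motif. Scg2, a secretogranin gene of neuroendocrine cells, had its summit 72 bp from the start, with a signal of 116.3 (59.0 in replicate 1 and 56.4 in replicate 2) and no motif. Lrrtm4, a synaptic adhesion gene, had its summit 3 bp from the start, with a signal of 68.6 (38.02 in replicate 1 and 29.06 in replicate 2) and a motif. The 17 signals ran from 25.2 at Gm14325 to 428.5 at Cpne8.

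Isolated peaks inside genes were mostly in very long ones. A coding gene contained 138 isolated peaks (19.2%) and 55.1% of the others. The median length of the host gene was 640.8 kb for isolated peaks, 432.1 kb for other peaks over 100 kb from a coding start and 78.6 kb for all other peaks. Genes over 500 kb held 76 of the 138 (55.1%), 41.2% of the other peaks over 100 kb from a coding start that lay in a coding gene, and 8.40% of all other peaks in one. The 138 peaks fell in 109 genes, and 22 genes held more than 1. Longer genes have more room to place a summit far from others, and length was not adjusted for.

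Cntnap2, a neurexin family gene of 2245 kb, held 4 isolated peaks of its 17 optimal peaks, with signals of 14.97 to 279. Lrp1b, a lipoprotein receptor family gene of 2058 kb, held 3 of 5, with signals of 19.1 to 65.9. Sntg1, which encodes a syntrophin, and Lrrtm4 each had 3 optimal peaks in all, and all of them were isolated. Lingo2 and Cntnap5a held 3 of 4 each. These 6 genes were named after their values were seen, as those with 3 or more isolated peaks.

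Starts near an isolated peak were counted in 11 gene lists. Of all 20722 autosomal coding genes, 2.77% had a start within 150 kb of an isolated summit. The highest share among the 11 lists was 17 of 74 genes of neuronal adhesion and synapses (23.0%). Next came 4 of 22 cadherins and protocadherins (18.2%) and 205 of 1456 olfactory and vomeronasal receptors (14.1%). Within 50 kb the shares were 14.9%, 13.6% and 5.43% in the same order, against 1.13% of all coding genes. Genes of a family lie in clusters and share peaks, so these counts are not independent, and they are a description with no test. The lists were chosen with earlier results of these data known, and gene length was not matched. Of the receptors, Olfr1000, Olfr1002 and Olfr1006 had the strongest peak near them, the same one with a signal of 400.2 at the head of the run on chromosome 2.

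Dlg2, a synaptic scaffold gene, held a peak with a signal of 367.3 (190.6 in replicate 1 and 176.4 in replicate 2) in an intron. Kcnd2, a potassium channel gene, had one of 300.7 (162.6 in replicate 1 and 138.1 in replicate 2) at 1493 bp from its start. Cntn5, a contactin gene, had one of 249 (141.6 in replicate 1 and 111.8 in replicate 2). Among the cadherins, Pcdh15 had a signal of 209.2, Cdh12 of 105.9 and Cdh7 of 47.4. All of these except Cdh7 held a motif match.

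Markers of the stomach's own cell types were also counted. None of 35 genes of glandular stomach epithelium, 17 of forestomach, 19 of enteric neurons and glia, 16 of blood and immune cells or 14 housekeeping genes had an isolated summit within 150 kb of a start. At a share of 2.77%, few would be in lists of this size, so these counts of 0 say little. Among the remaining lists, the gene found was Zfhx4 of 34 mesenchyme genes, with a signal of 35.7, and Emcn, an endothelial sialomucin gene, of 16 endothelial genes, with a signal of 224.7. Of 58 developmental regulators known for surrounding gene deserts, 2 (3.45%) had an isolated summit within 150 kb, close to the 2.77% of all coding genes. The peak 117670 bp from a start of Fgf10, a growth factor gene, had a signal of 106.5. The peak 143428 bp from a start of Zeb2, a zinc finger repressor gene, lay in an intron of Gtdc1 and had a signal of 22.6.

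The DNA around isolated peaks was also richer in A and T. GC content within 150 kb was 37.9% at the median isolated peak, 42.4% at other peaks over 100 kb from a coding start and 44.9% at all other peaks. At the summit window itself the medians were 46.5% for isolated peaks and 52.5% for the others. Soft-masked repeats made up a median of 40.9% of the surroundings of isolated peaks, 27.5% around other peaks over 100 kb from a coding start and 28.3% around all others. Repeats can lower the reads that align to one place, and their part in the spacing of summits was not tested. Summit windows were mostly masked at 11.3% of isolated peaks and 18.2% of the others.

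**Figure D5:**
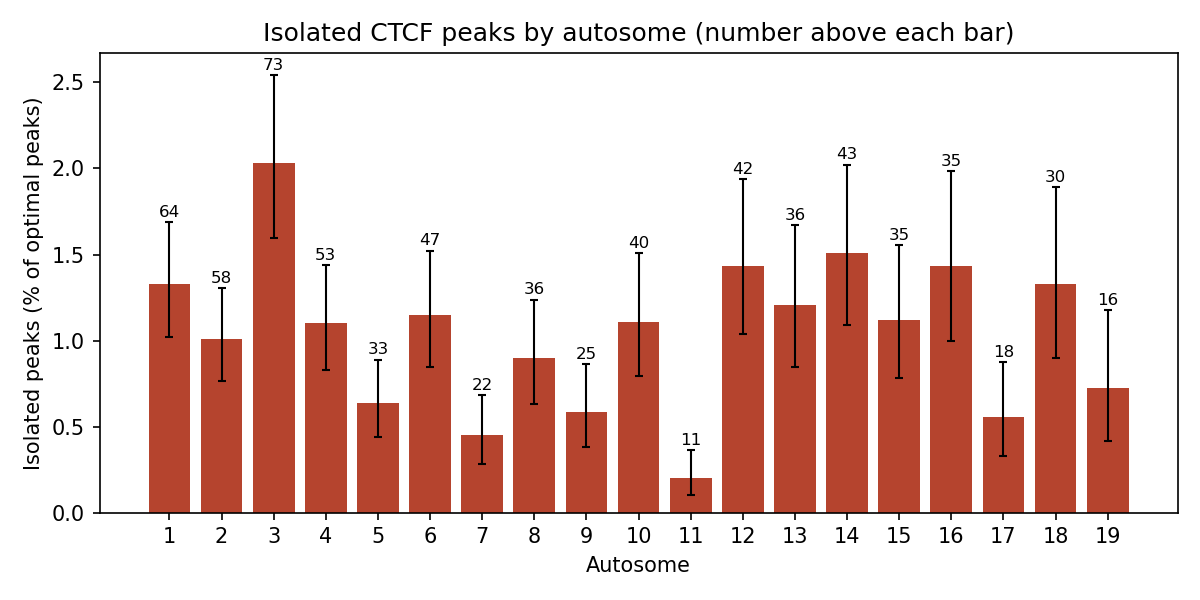
Isolated peaks as a share of the optimal peaks of each autosome (vertical axis, percent), with exact 95% intervals and the number of isolated peaks above each bar. The share is highest on chromosome 3, at 2.03% with 73 peaks, and lowest on chromosome 11, at 0.202% with 11 peaks.

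Every autosome held isolated peaks, in unequal shares. Chromosome 3 had the highest share, 73 of 3598 optimal peaks (2.03%, 95% interval 1.59 to 2.54), and chromosome 11 the lowest, 11 of 5448 (0.202%, 0.101 to 0.361). Chromosomes 14, 12 and 16 followed chromosome 3, at 1.51%, 1.44% and 1.43%, with intervals that overlap each other. Chromosome 3 had 23.0 optimal peaks and 6.39 coding genes per Mb, and chromosome 11 had 45.9 and 13.8. Across the 19 autosomes, the isolated share had a Spearman rho of -0.95 with optimal peaks per Mb and -0.91 with coding genes per Mb, given as descriptions. The first of these is largely built in, since sparser summits leave wider spaces.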

How the data were processed

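CTCF ChIP-seq of 2 replicates was read from 5 peak lists in mm10 coordinates. Per the deposited descriptions, 3 are relaxed lists (each replicate and both together) and 2 are the optimal and conservative lists after IDR. The aligner, the peak caller and the version and threshold of IDR are each not given in the sources used here. Each peak has a signal from the authors' peak caller, a deposited −log10 q-value, a deposited score and a deposited summit offset in bp. No read numbers were used, the depth is unknown, and intervals cover counting error only.

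The members and gene lists were chosen with earlier results of these data known. Summits were compared on the 19 autosomes. A summit was shared within 100 bp. The motif matrix was learned from the 1000 strongest chromosome 1 peaks that were not isolated, with 989 sites aligned, and scanned over the other 18 autosomes. Its threshold was the score met by 1% of windows every 100 kb, 22041 in all. Genes came from GENCODE M21 and sequence from GRCm38. Named peaks were the 10 strongest, 10 most isolated and 5 weakest, 3 on each side of the threshold, the strongest of each context, and up to 3 genes per list. Intervals are exact Clopper-Pearson at 95%. Steps were tested on simulated data. Software was Python 3.11.15, with matplotlib 3.10.9, numba 0.67.0, scipy 1.17.1, pandas 2.3.3 and numpy 2.4.6. Alternatives covered the distance, list, close summits, gaps, replicates, motif settings, genes and list distance.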

Additional observations from a re-analysis of the deposited data

Results flagged for a closer look

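Chromosome X lay outside the autosomal rule and carried isolated peaks by the same distance. Of 1769 optimal peaks on chromosome X, 73 had no other optimal summit within 150 kb (4.13%, exact 95% interval 3.25 to 5.16), against 0.989% on the autosomes. Their median signal was 54.4, and that of the other peaks of chromosome X was 89.9. Across the autosomes, the isolated share had a Spearman rho of -0.95 with optimal peaks per Mb, a relation that is largely built in. Peaks per Mb were not measured for chromosome X, and its share was not compared at equal peak density. The labels record no sex. The part of peak density or of sex in these values was not tested.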

How the results depend on the processing

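The count of 717 isolated peaks moved by over 1.5 times only with the distance, to 1409 at 100 kb and 279 at 250 kb, and was 719 to 743 with 1 replicate left out. Shares, medians and ratios were held against the spread between the replicates, which with 2 replicates is a rough measure, and counts against a factor of 1.5. Of 71 comparisons between a result and an alternative, 37 stayed within these limits and 34 did not. The counts within them included 971 isolated peaks when only those above the median signal were used, and 4 gene lists above all coding genes within 50 kb, against 6 within 150 kb. At 100 kb the median signal percentile was 43.2, the motif share 74.5%, the intergenic share 65.2%, the median distance to a coding start 236 kb, the highest over the lowest chromosome share 4.65 and GC content 38.5%. At 250 kb the motif share was 81.0%, the intergenic share 76.3%, the distance 443 kb and GC content 37.3%. With the rule applied only to peaks above the median signal, the percentile was 36.2, the share in both replicates 99.9%, the motif share 82.9%, the intergenic share 62.2%, the distance 208 kb, the chromosome ratio 3.21 and GC content 39.0%. The conservative list gave 89.6% in both replicates, a chromosome ratio of 6.70 and GC content of 37.9%. Without peaks near gaps the percentile was 41.7. With 1 replicate left out, the percentile was 41.2 to 42.1, the share in both replicates 83.9% to 89.8%, the motif share 74.0% to 74.9%, the intergenic share 71.7% to 74.1%, the distance 314 to 328 kb and the chromosome ratio 6.88 to 10.5. The cause of these moves was not tested.

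The motif share was 19.9% at the stricter score and 60.9% in windows of 100 bp on either side. The wider windows had their own threshold, met by 1% of grid windows of that width, which was higher, at 14.33 against 11.76. It was 81.9% with a threshold from grid windows over 1 kb from any relaxed peak, an alternative chosen after seeing the data. With all genes in place of coding genes, the median distance to a start was 36.0 kb. No paired analysis was possible because there was 1 group. The depth behind the peaks is unknown, so how many summits were missed for want of reads was not tested.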
